A study of Mus musculus with 8 samples.

Results

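The genes described here are 60 splicing factor and hnRNP genes of the mouse, chosen by their symbols among 13420 genes in the read count table of a study of cell competition in intestinal organoids. A symbol was included when it began with Srsf and a digit (10 SR protein genes), Hnrnp (18 genes), Sf3a or Sf3b and a digit (8 genes), Snrp (11 genes) or Prpf and a digit (13 genes). This rule reads symbols only, but it was chosen with earlier results of these data known. Of these 60 genes, 46 had enough reads to be tested: 8 SR protein, 13 hnRNP, all 8 SF3A and SF3B, all 11 Snrp and 6 Prpf genes.

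Organoids are small epithelial cultures grown in a gel from intestinal stem cells. WT cells came from C57BL/6 small intestine organoids that carry mTmG, a transgene that marks membranes with tdTomato. Cancer cells came from small intestine organoids with Villin-CreERT2, Apc fl/fl and Tr53 fl/R172H on a C57BL/6 (F6) background. Villin is a gene of the gut epithelium, so its promoter confines the Cre recombinase to that tissue, and tamoxifen activates it to alter Apc and Tr53. These cells were marked with Dendra2. Pure cultures held 1 cell type, and mixed cultures were set up from 2 parts of WT to 1 part of cancer cells. All cultures were grown in the same medium with EGF, Noggin and R-spondin1, and on day 3 after mixing live single cells were sorted by color. The 4 groups have 2 libraries each, named here by their wells: pure WT cells are in A01 and A05, mixed WT cells in A02 and A06, pure cancer cells in A03 and A07, and mixed cancer cells in A04 and A08.

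Splicing removes introns from a transcript and joins its exons, which is done by the spliceosome. The Snrp genes encode proteins of its small nuclear ribonucleoproteins (snRNPs), particles of a small RNA with Sm and specific proteins, SF3A and SF3B make the U2 snRNP able to hold the branch point of the intron, and Prpf proteins drive the assembly and catalytic steps. SR proteins mostly bind exons and favor their inclusion, whereas hnRNP proteins coat transcripts and often oppose it. Every cell needs these factors, and dividing cells such as those of the intestinal crypts express many of them highly.

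Libraries ranged from 73109 reads on genes in mixed WT library A02 to 4733121 in mixed cancer library A04, and the other 6 held between 201137 and 1905693. The 3' end of each transcript was read by CEL-Seq, and a level below is in CPM, which scales a library's reads to a common total with edgeR's TMM factors. The 8 epithelial markers checked had a summed level of 15444 CPM in mixed WT library A06 and 4529 to 6364 in the others. Fibroblast markers summed to at most 7.31 CPM. Of the immune markers, only Cd68 was in the table, at up to 68.8 CPM in pure cancer library A07. The labels do not say whether the 2 libraries of a group come from separate cultures, so the p-values measure the spread between these libraries, which may be technical.

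All 60 genes together took 0.742% and 0.757% of the reads in the pure WT libraries, but 0.521% and 0.473% in the mixed WT libraries. In cancer cells the share was 0.716% and 0.558% in the pure and 0.760% and 0.527% in the mixed libraries. The mixed WT libraries were thus the 2 lowest of the 8, and the cancer groups overlapped. In bulk RNA, fewer cells of a type that expresses these genes and less RNA per cell cannot be told apart. All 60 genes had reads in A04, 18 had none in A02 and 14 had none in A08.

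**Figure D1:**
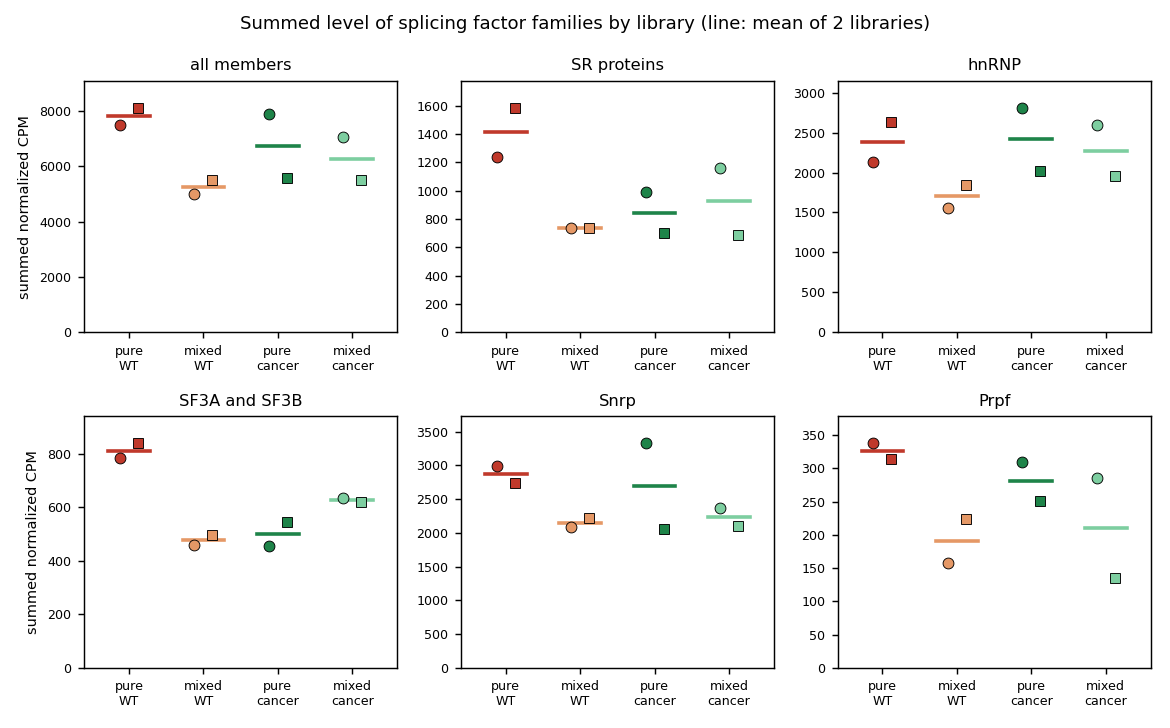
Summed normalized CPM of all 60 genes and of each family (vertical axes, from 0) in the 4 groups, with a symbol for each library and a line at the mean of 2 libraries. Both mixed WT libraries lie under both pure WT libraries in each panel, for instance the SR proteins at 734 and 734 CPM against 1239 and 1583, whereas pure and mixed cancer libraries overlap except for SF3A and SF3B.

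The families were compared over the 4 groups by the summed level of their genes. The SR proteins summed to 1239 and 1583 CPM in pure WT, 734 and 734 in mixed WT, 987 and 700 in pure cancer, and 1159 and 690 in mixed cancer libraries. The summed level in mixed WT cells was 52.0% of that in pure WT cells, and in pure cancer cells it was 59.8%, without overlap of the libraries in either case. SF3A and SF3B genes had the same order of group means, at 783 and 838 CPM in pure WT, 459 and 496 in mixed WT, 457 and 545 in pure cancer, and 634 and 617 in mixed cancer libraries. Their sum was 58.9% of pure WT in mixed WT cells, 61.8% of pure WT in pure cancer cells and 125% of pure cancer in mixed cancer cells, again without overlap.

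For the hnRNP genes, pure cancer libraries overlapped pure WT libraries. They summed to 2136 and 2629 CPM in pure WT, 1560 and 1849 in mixed WT, 2808 and 2020 in pure cancer, and 2593 and 1956 in mixed cancer libraries. The sum in mixed WT cells was 71.5% of that in pure WT cells, while pure cancer cells were at 101%. Snrp genes summed to 2995 and 2739 CPM in pure WT, 2084 and 2213 in mixed WT, 3327 and 2059 in pure cancer, and 2370 and 2101 in mixed cancer libraries. The 2 pure cancer libraries lay on either side of the pure WT libraries, and the sum in mixed WT cells was 74.9% of that in pure WT cells. Prpf genes summed to 338 and 314 CPM in pure WT, 157 and 224 in mixed WT, 310 and 251 in pure cancer, and 286 and 135 in mixed cancer libraries. Mixed WT cells were at 58.5% of pure WT cells.

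With molecule barcodes counted in place of reads, the sum of the Snrp genes in mixed WT cells was 110% of that in pure WT cells and the libraries overlapped, while it stayed lower without overlap for SR proteins (60.5%), hnRNP (87.1%), SF3A and SF3B (64.2%) and Prpf genes (44.0%). Barcode counts cannot exceed 256 for a gene in these files, and 10 of the 480 values of the 60 genes were within 10% of that limit. All of these were in mixed cancer library A04. Pure WT libraries came nearer to the limit than mixed WT libraries. For instance, Snrpg had 194 and 227 barcodes in A01 and A05, against 23 and 105 in A02 and A06. The part of this limit in the ratios was not tested. No test was run on these sums, since the genes of a family are not replicates.

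The first comparison asked how mixing with cancer cells changed the expression of WT cells. No splicing factor gene changed at an adjusted p of 0.05 (edgeR's quasi-likelihood test, Benjamini-Hochberg over 5264 genes), and 0.741% of all tested genes did. At an unadjusted p under 0.05, 10 of the 46 tested genes (21.7%) were lower in mixed WT cells and 0 were higher, beside 4.67% of all tested genes that were lower. DESeq2 gave 0 genes after adjustment, beside 1.31% of all tested genes, and 7 lower (15.2%) without it, beside 3.06%. The level was lower in 37 and higher in 9 of the 46 genes, as against 2890 lower and 2360 higher of all tested genes, with a median log2 fold change of −0.45 against −0.10 over all tested genes. In 22 genes (47.8%) both mixed WT libraries were under both pure WT libraries, beside 28.8% of all tested genes. Without A02, 36 of 48 tested genes (75%) were lower, beside 53.6% of all 6669 tested genes. Without A06, 36 of 46 (78.3%) were lower, beside 3678 (68.3%) of all 5383 tested genes. In that fit the median of all genes moved to −0.74 and that of these genes to −1.01. Of the pure WT libraries, leaving out A01 gave 34 of 46 genes (73.9%) lower, beside 52.4% of all tested genes. Leaving out A05 gave 29 of 44 (65.9%) lower, beside 50.4%, with medians of −0.40 and −0.0099.

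**Figure D2:**
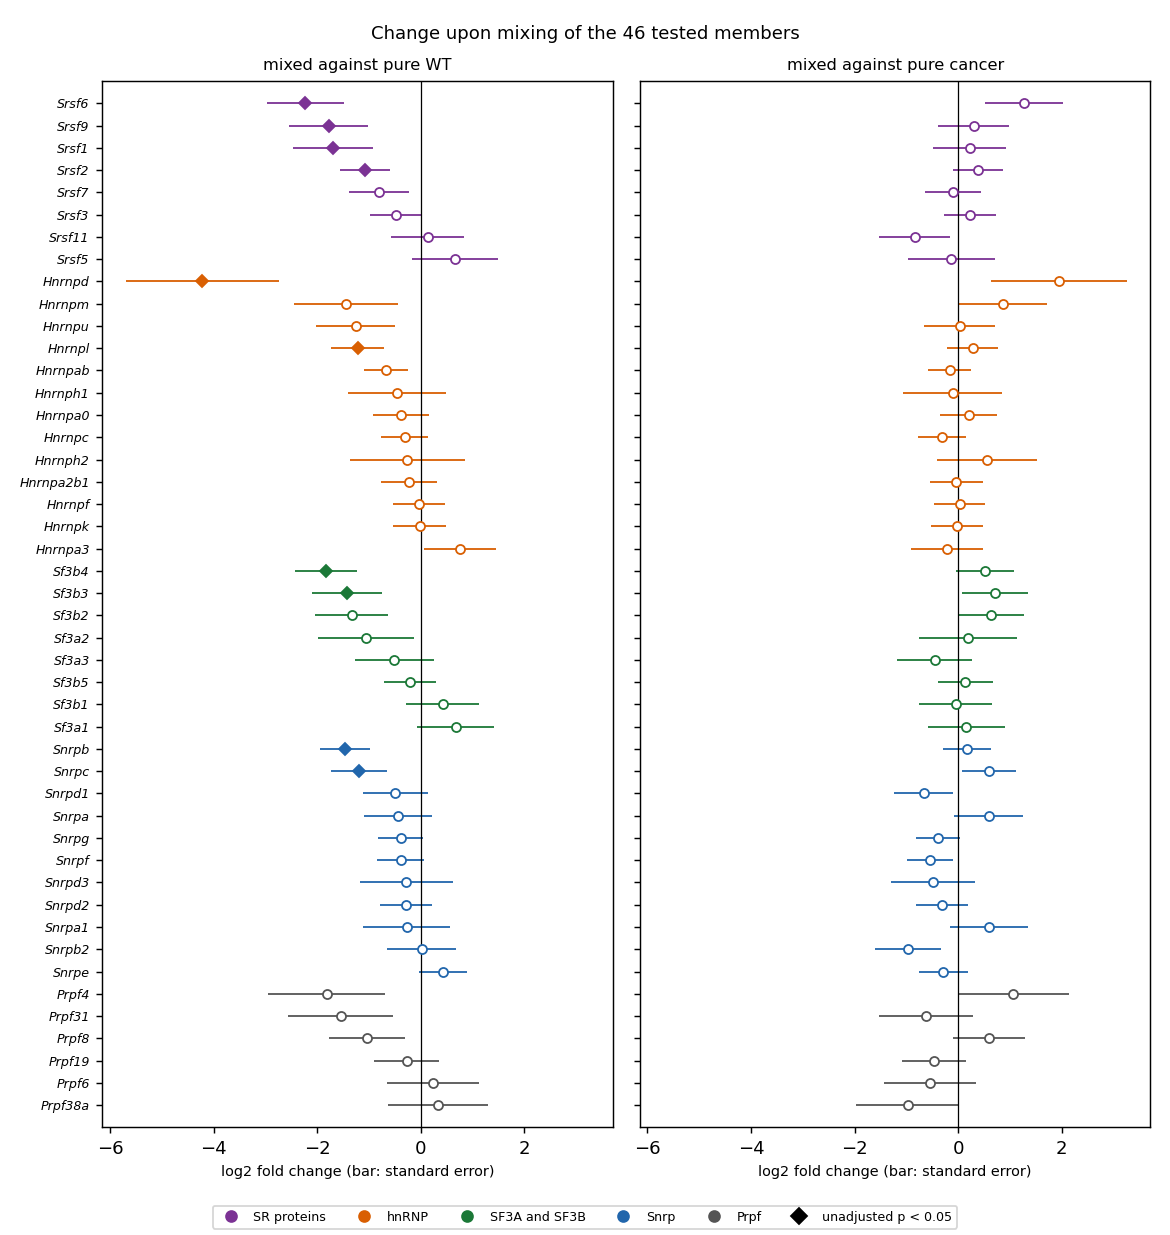
Log2 fold change upon mixing (horizontal axes, bars are standard errors) of the 46 tested genes in WT (left) and cancer cells (right), ordered within each family by the change in WT cells. Filled diamonds mark an unadjusted p under 0.05, which 10 genes reached in WT cells, all to the left of 0, and none in cancer cells.

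Among SR proteins, 4 of the 8 tested genes (50%) were lower at an unadjusted p under 0.05, beside 4.67% of all tested genes. The median log2 fold change was −0.94, beside −0.10 over all tested genes. Srsf6, an SR protein that regulates the choice of exons, was at 101 and 175 CPM in pure WT libraries, 0 and 40.8 in mixed WT, 21.0 and 32.9 in pure cancer, and 63.2 and 72.6 in mixed cancer libraries. Pure WT cells thus had the highest levels, mixed cancer cells came next without overlap, and mixed WT and pure cancer libraries overlapped each other below them. In mixed WT cells, Srsf6 differed from pure WT cells by a log2 fold change of −2.23 with a standard error of 0.75 (adjusted p = 0.234, edgeR). It was read from 18 reads in A06 and 0 reads in A02, where a count of 0 allows up to 41.0 CPM on the unscaled total. With barcode counts the same difference was −2.22 with an adjusted p of 0.0185, and with estimated transcript counts −2.34 with an adjusted p of 0.0444, so this call depended on the kind of count.

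Srsf6 lies on chromosome 2, positions 162931528 to 162937121 of the forward strand (GRCm38, the mm10 build of the files), and its longest coding transcript in GENCODE vM21 has 6 exons. Its promoter is shown because it was the only gene of the 60 that passed the adjusted threshold in any comparison in edgeR's fit of the read counts of all 8 libraries. RefSeq gives the following 300 bases around its start, 250 before and 50 after it, and no motif of those searched was in it.
Srsf6, chr2:162931258-162931557, forward strand: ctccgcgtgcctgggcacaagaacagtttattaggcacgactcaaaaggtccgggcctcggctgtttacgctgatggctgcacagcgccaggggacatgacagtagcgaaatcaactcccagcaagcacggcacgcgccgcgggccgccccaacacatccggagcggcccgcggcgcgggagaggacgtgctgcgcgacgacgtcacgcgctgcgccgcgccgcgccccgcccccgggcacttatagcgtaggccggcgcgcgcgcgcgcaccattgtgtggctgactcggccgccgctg

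Srsf2, an SR protein needed for constitutive splicing, was at 497 and 726 CPM in pure WT, 301 and 281 in mixed WT, 273 and 260 in pure cancer, and 479 and 197 in mixed cancer libraries. Pure WT libraries were above the rest, and the difference of mixed from pure WT cells was −1.08 ± 0.48 on the log2 scale (standard error, adjusted p = 0.455). Srsf3, a small SR protein that also acts in mRNA export, was at 192 and 238 CPM in pure WT, 118 and 179 in mixed WT, 215 and 120 in pure cancer, and 187 and 202 in mixed cancer libraries. Its WT groups did not overlap, but the difference was within its error, at −0.48 ± 0.50. Srsf9 (−1.78) and Srsf1 (−1.69), the remaining SR genes that passed the unadjusted p, had fewer reads, with 13.1 CPM from a single read each in A02. Not all SR genes were lower, since Srsf11 (0.13) and Srsf5 (0.66) lay above 0.

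Of the 13 tested hnRNP genes, 12 (92.3%) were lower in mixed WT cells, beside 54.9% of all tested genes, with a median of −0.38. At an unadjusted p under 0.05, 2 (15.4%) were lower, beside 4.67% of all tested genes. Hnrnpd, also known as AUF1, binds AU-rich elements and regulates mRNA decay. It was at 39.4 and 34.8 CPM in pure WT libraries, 0 and 2.27 in mixed WT, 5.25 and 2.99 in pure cancer, and 21.5 and 0 in mixed cancer libraries. These values rest on 105 reads in pure WT cells, a single read in mixed WT cells (1), 2 reads in pure cancer cells and 110 reads in mixed cancer cells, all of the last from A04. The ratio of mixed to pure WT cells was 0.0528 with a 95% counting interval of 0.00133 to 0.301, and that of pure cancer to pure WT cells was 0.104 (0.0125 to 0.386). The adjusted p was 0.265 in the former (edgeR), so both groups of low values lay under pure WT cells without passing the test. Both intervals take each read as a separate count, although reads include amplification copies, so they may be too narrow. The pure WT reads held 25 and 38 barcodes in A01 and A05.

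Hnrnpd lies on chromosome 5, positions 99955935 to 99978938 of the reverse strand. Its promoter is shown as the only one of the 70 RefSeq promoters of these genes that held both an E-box, the site of Myc and Max (CACGTG), and an ETS motif (CCGGAAGT, here as its reverse complement), which are in capitals.
Hnrnpd, chr5:99978889-99979188, reverse strand: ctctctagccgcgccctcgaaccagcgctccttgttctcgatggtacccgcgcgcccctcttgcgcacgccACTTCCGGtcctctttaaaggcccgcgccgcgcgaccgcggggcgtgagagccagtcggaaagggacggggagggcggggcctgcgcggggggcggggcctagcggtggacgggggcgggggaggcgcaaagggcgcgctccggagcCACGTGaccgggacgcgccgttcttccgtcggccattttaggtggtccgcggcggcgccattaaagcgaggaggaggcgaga

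Hnrnpl, which binds CA-rich elements, was at 227 and 270 CPM in pure WT, 91.8 and 116 in mixed WT, 199 and 135 in pure cancer, and 212 and 187 in mixed cancer libraries, so mixed WT libraries were the lowest of the 8. The difference of mixed from pure WT cells was −1.22 ± 0.51 (adjusted p = 0.391). Hnrnpab, an RNA-binding protein related to Hnrnpd, was at 724 and 851 CPM in pure WT, 524 and 464 in mixed WT, 1018 and 709 in pure cancer, and 901 and 633 in mixed cancer libraries. Its difference in WT cells was −0.68 ± 0.42. Hnrnpc, which binds uridine tracts in introns, was at 365 and 454 CPM in pure WT compared with 210 and 424 in mixed WT libraries and overlapped (−0.31 ± 0.46). Hnrnpa3 was the hnRNP gene that lay higher, at 46.7 and 55.1 CPM in pure and 105 and 74.8 in mixed WT libraries (0.75 ± 0.70). For Hnrnpa3, 46.9% of the windows of 50 bases in its last 500 bases also occur in other genes of GENCODE vM21. The share was also 10% or more for Hnrnpf (37.3%), Snrpc (35.1%), Hnrnpk (29.6%), Snrpa (26.1%), Hnrnph2 (15.9%) and Sf3b4 (11.8%). The authors aligned to the RefSeq transcriptome and discarded reads mapping equally well to several places. The part of this step in the levels of these genes was not tested.

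Sf3b4, a subunit of SF3B that contacts the transcript near the branch point, had the smallest p of the 46 genes in this comparison. It was at 233 and 308 CPM in pure WT libraries, 52.4 and 88.4 in mixed WT, 47.2 and 189 in pure cancer, and 187 and 161 in mixed cancer libraries. Mixed WT cells lay below pure WT and mixed cancer cells without overlap. Pure cancer library A03 lay under both mixed WT libraries, and A07 above both mixed cancer libraries. The difference of mixed from pure WT cells was −1.83 ± 0.60 (adjusted p = 0.216). Sf3b3, its large scaffold subunit, was at 89.7 and 106 CPM in pure and 26.2 and 40.8 in mixed WT libraries (−1.42 ± 0.68, adjusted p = 0.501). Sf3a1, a subunit of SF3A, was at 51.3 and 33.2 CPM in pure and 118 and 38.5 in mixed WT libraries (0.67 ± 0.74), with the high value in the shallowest library. Without A02, its difference was −0.17.

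The SmB protein gene Snrpb, a member of the ring of Sm proteins that all major spliceosomal snRNPs but U6 share, was at 439 and 466 CPM in pure WT, 91.8 and 211 in mixed WT, 262 and 317 in pure cancer, and 375 and 275 in mixed cancer libraries. Mixed WT libraries were again the lowest 2, at −1.47 ± 0.48 from pure WT cells (adjusted p = 0.227). Snrpc, a protein of the U1 snRNP, was at 243 and 253 CPM in pure and 78.6 and 127 in mixed WT libraries (−1.18 ± 0.54, adjusted p = 0.473). Other Sm genes varied less. Snrpg was at 601 and 668 CPM in pure WT and 485 in both mixed WT libraries (−0.39 ± 0.43), and Snrpf at 635 and 387 CPM in pure and 367 and 410 in mixed WT libraries (−0.39 ± 0.46). Snrpe, also an Sm gene, lay higher, at 340 and 382 CPM in pure and 590 and 399 in mixed WT libraries (0.43 ± 0.47). Of the 11 Snrp genes 9 (81.8%) were lower, beside 54.9% of all tested genes, and 2 (18.2%) at an unadjusted p under 0.05, beside 4.67%.

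The Prpf genes had few reads. Prpf8, the core protein of the spliceosome's catalytic center, was at 65.0 and 56.8 CPM in pure WT but 13.1 and 36.2 in mixed WT libraries (−1.04 ± 0.73). Prpf19, a ubiquitin ligase of the spliceosome, was at 140 and 93.9 CPM in pure WT compared with 144 and 68.0 in mixed WT libraries, which overlapped (−0.27 ± 0.62). None of the 6 tested Prpf genes passed the unadjusted p, beside 4.67% of all tested genes that were lower at that p. Of the 6, 4 (66.7%) lay lower, beside 54.9% of all tested genes.

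The 14 genes left untested included Srsf4 and Srsf10, Hnrnpa1, Hnrnph3, Hnrnpr, Hnrnpul1 and Hnrnpul2, and Prpf3, Prpf4b, Prpf18, Prpf38b, Prpf39 and Prpf40b, and the 14 had 1 to 146 reads over the 8 libraries. Hnrnpa1, an abundant hnRNP protein in most cells, had 7 reads in all, all of them in A04, and Hnrnph3 and Srsf4 had 1 read each. The authors discarded reads with several equally good matches, and the part of this step in these counts was not tested. Of the end windows described for Hnrnpa3, 0% also occur in other genes for Hnrnpa1, Hnrnph3 and Srsf4. Among the untested genes, Hnrnpr had the highest share, at 7.01%.

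**Figure D3:**
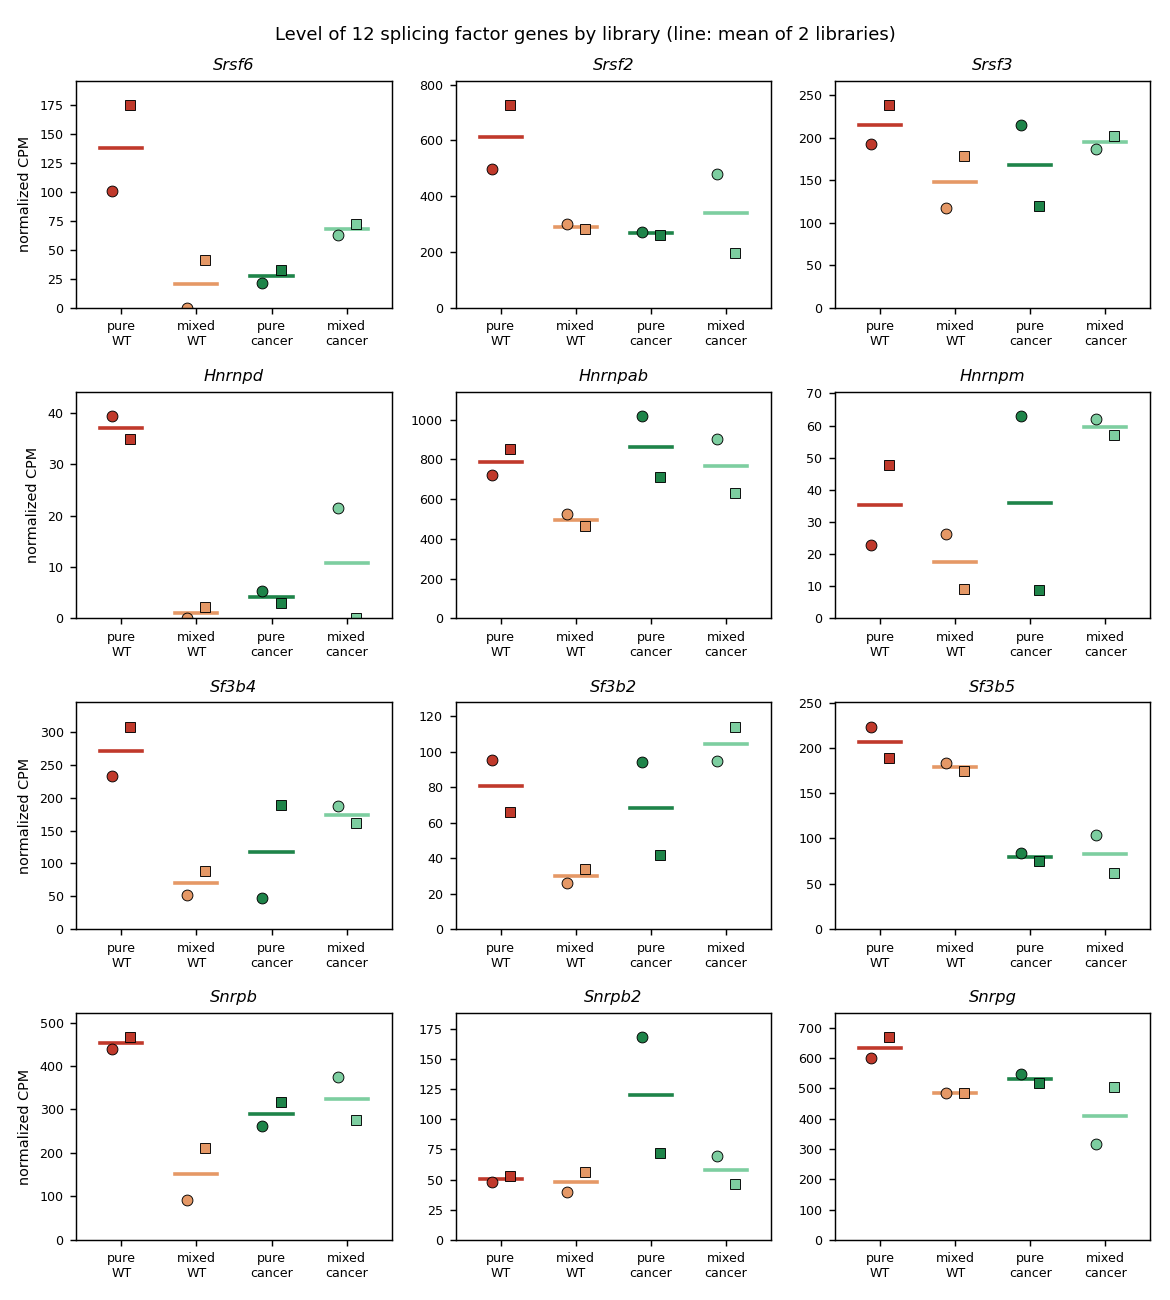
Normalized CPM (vertical axes, from 0) of 12 genes in the 4 groups, with a symbol for each library and a line at the mean of 2 libraries. Srsf6, Hnrnpd, Sf3b4 and Snrpb are lower in both mixed than in both pure WT libraries, Sf3b5 separates all WT from all cancer libraries, and Snrpb2 is highest in pure cancer library A03 at 168 CPM.

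Markers of other cell states were measured beside these values. Of 11 proliferation genes 9 were lower in mixed WT cells, with a median of −0.99 and a summed level of 1477 to 1568 CPM in pure WT, 553 to 1311 in mixed WT, 796 to 2157 in pure cancer and 809 to 1956 in mixed cancer libraries. All 4 tested stem cell markers were lower in mixed WT cells, at a median of −1.64 and summed levels of 78.6 to 195 CPM against 418 to 579 in pure WT cells. Of the 6 tested enterocyte markers 5 were lower (median −0.79, with 1541 to 1835 CPM in mixed against 1705 to 1843 in pure WT cells), and so were all 3 tested Paneth cell markers (median −0.72, with 406 to 809 against 989 to 2121 CPM). Goblet cell markers went both ways (2 higher, 2 lower, median 0.03), as did enteroendocrine markers (2 higher, 1 lower, median 0.03). Of the 8 epithelial markers, 5 were higher and 3 lower in mixed WT cells (median 0.16). No gene of these lists passed the adjusted threshold between mixed and pure WT cells, beside 0.741% of all tested genes. Of all tested genes, 54.9% were lower in mixed WT cells. Their part in the levels of the splicing factor genes was not tested.

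The same comparison in cancer cells asked whether mixing changed cancer cells. No splicing factor gene differed between mixed and pure cancer cells at an adjusted p of 0.05, and 0% of all tested genes did. Without adjustment, 0 of the 46 genes passed, beside 1.31% of all tested genes in either direction. DESeq2 gave 0 of the 46 with and without adjustment. Over all 5264 tested genes it gave 0 with adjustment, and 43 higher and 11 lower without. The median log2 fold change of the 46 genes was 0.03, as over all genes, with 24 higher and 22 lower. Srsf6 had the smallest p, at 1.27 ± 0.75 (21.0 and 32.9 against 63.2 and 72.6 CPM, adjusted p = 1). The smallest p in the lower direction belonged to Snrpb2, the U2B'' protein of the U2 snRNP, at 168 and 71.8 CPM in pure and 69.3 and 46.7 in mixed cancer libraries (−0.96 ± 0.64). Hnrnpd lay at 1.95 ± 1.32, and at −4.23 without A04, the only mixed cancer library with reads of it. Snrpc (0.59 ± 0.53), Srsf11 (−0.84 ± 0.68) and Snrpf (−0.54 ± 0.45) followed, each with overlapping libraries. The median itself depended on single libraries, at 0.40 without A03, −0.34 without A04 and 0.39 without A08.

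Whether mixing affected WT and cancer cells differently was tested as the difference of both changes (WT minus cancer). No splicing factor gene passed the adjusted threshold, and 0.076% of all tested genes did. At an unadjusted p under 0.05, 9 of the 46 genes (19.6%) were lower in this difference, beside 3.93% of all tested genes, and 0 were higher. DESeq2 gave 0 genes after adjustment, beside 0.399% of all tested genes. Without adjustment it gave 7 lower (15.2%), beside 2.62% of all tested genes. The median was −0.55 over the 46 genes and −0.17 over all genes. That order turned without A07 (−0.37 against −0.55) and without a filter on low counts (−0.93 against −1.06). Srsf6 had a difference of −3.50 ± 1.06 (adjusted p = 0.416), Hnrnpd of −6.16 ± 1.99 (adjusted p = 0.466) and Sf3b4 of −2.35 ± 0.82 (adjusted p = 0.533). Srsf6 passed with barcode counts (−3.36, adjusted p = 0.0254) but not with estimated transcript counts, Sf3b4 passed without A07 (−3.81, adjusted p = 0.0432), and that of Hnrnpd was 0.067 without A04. Of the upper end, Snrpb2 (0.98 ± 0.92), Hnrnpa3 (0.98 ± 0.98) and Snrpe (0.72 ± 0.66) had the smallest p. The 2 changes share no library. In 23 of the 46 genes (50.0%) the log2 fold change was below 0 in WT and above 0 in cancer cells, beside 30.9% of all tested genes. Another 14 genes were below 0 in both. These counts use the 2 parts of the difference above and are no separate result.

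Next, cancer and WT cells were compared without mixing. In pure cancer cells Srsf6 fell by 2.31 on the log2 scale (standard error 0.73, adjusted p = 0.0464), with 137.7 ± 52.4 CPM in pure WT and 27.0 ± 8.4 in pure cancer cells (SD, n = 2). It was the only 1 of the 46 genes to pass, beside 9.95% of all tested genes. This call lay near the threshold. DESeq2 gave an adjusted p of 0.0710 and 0 genes among the 46, beside 8.47% of all tested genes. Without adjustment it gave 3 lower (6.52%), beside 8.3% of all tested genes. The edgeR value for Srsf6 was −1.77 without A05 (adjusted p = 0.462), −2.11 without A03 (0.129), −2.80 without A07 (0.0869) and −2.71 without A01 (0.0579). At an unadjusted p under 0.05, 5 genes (10.9%) were lower, near the 10.3% of all tested genes, and 0 were higher. The median was −0.07, close to −0.05 over all genes.

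Sf3b5, a small subunit of SF3B, was at 223 and 189 CPM in pure WT, 184 and 174 in mixed WT, 84.0 and 74.8 in pure cancer, and 104 and 62.2 in mixed cancer libraries. All cancer libraries were below all WT libraries, at −1.38 ± 0.52 between the pure groups (adjusted p = 0.107) and −1.03 ± 0.53 between the mixed groups (adjusted p = 0.336). With barcode counts (−1.25, adjusted p = 0.0380) and with estimated transcript counts (−1.43, adjusted p = 0.0241) the former passed. Srsf2 (−1.20 ± 0.48, adjusted p = 0.130), Hnrnpd (−3.23 ± 1.25, adjusted p = 0.115) and Sf3b4 (−1.15 ± 0.55, adjusted p = 0.243) made up the other genes with an unadjusted p under 0.05. Hnrnpd passed in a fit of only the 4 pure libraries (adjusted p = 0.0434), as did Sf3b4 without A07 (−2.61, adjusted p = 0.0270). Toward the upper side, Snrpb2 (a ratio of 2.34 with adjusted p = 0.277), Snrpd3 (0.92 ± 0.79) and Snrpd1 (0.64 ± 0.57), all but the first Sm genes, had the smallest p, each with its highest level in A03. This comparison uses the same pure WT libraries as that of mixed with pure WT cells, so a high or low value in A01 or A05 enters both. Srsf6 was at −2.31 in the former and −2.23 in the latter, Hnrnpd at −3.23 and −4.22, and Srsf2 at −1.20 and −1.08.

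Between mixed cancer and mixed WT cells, both from mixed cultures, no splicing factor gene passed the adjusted threshold, and 6.42% of all tested genes did. At an unadjusted p under 0.05, 2 genes (4.35%) were higher in cancer cells, beside 7.94% of all tested genes, and 0 were lower. DESeq2 gave 0 genes after adjustment, beside 5.76% of all tested genes. Without adjustment it gave 1 higher, beside 355 of all 5264 tested genes. In 17 genes (37.0%) both cancer libraries lay above both WT libraries, beside 26.5% of all tested genes. The 46 genes had a median of 0.43 against 0.12 over all genes, but of −0.021 against −0.076 without A04, the deepest library. Sf3b2, the SF3B subunit that binds Sf3b4, was at 95.2 and 65.8 CPM in pure WT, 26.2 and 34.0 in mixed WT, 94.5 and 41.9 in pure cancer, and 94.7 and 114 in mixed cancer libraries. Mixed WT libraries were the lowest, at a difference of 1.70 ± 0.71 from mixed cancer cells (adjusted p = 0.206). Hnrnpm, a regulator of alternative exons, was at 22.9 and 47.8 CPM in pure WT, 26.2 and 9.06 in mixed WT, 63.0 and 8.98 in pure cancer, and 62.0 and 57.1 in mixed cancer libraries (2.19 ± 1.02, adjusted p = 0.271). Snrpb followed at 1.00 ± 0.49 (adjusted p = 0.304). Besides Sf3b5, Snrpe (−0.69 ± 0.48) and Prpf19 (−0.78 ± 0.64) had the smallest p in the lower direction.

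Sf3b2 lies on chromosome 19, positions 5273932 to 5295455 of the reverse strand. Its promoter is shown because Sf3b2 was the only gene among the 53 with a promoter entry in which a single promoter held both an ETS motif and a CCAAT box, which are in capitals.
Sf3b2, chr19:5295406-5295705, reverse strand: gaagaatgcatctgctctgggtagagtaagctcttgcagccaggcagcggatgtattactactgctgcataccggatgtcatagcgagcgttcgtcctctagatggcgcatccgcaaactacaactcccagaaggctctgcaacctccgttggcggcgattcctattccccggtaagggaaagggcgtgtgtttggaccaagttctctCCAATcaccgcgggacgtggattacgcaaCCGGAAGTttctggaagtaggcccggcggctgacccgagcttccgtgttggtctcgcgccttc

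**Figure D4:**
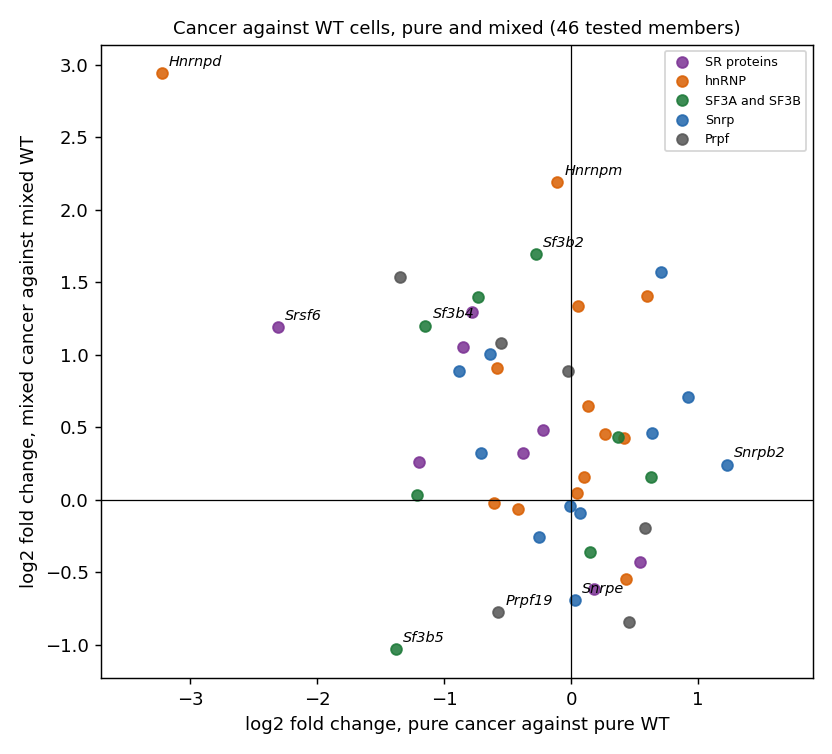
Log2 fold change of cancer against WT cells between pure (horizontal axis) and between mixed libraries (vertical axis), with a point for each of the 46 tested genes, colored by family. Genes lie in all quadrants, 19 of them in the upper left, where Srsf6, Hnrnpd, Sf3b4 and Sf3b2 are, and Sf3b5 lies at the lower left end at −1.38 and −1.03.

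The comparisons between cancer and WT cells in pure and in mixed cultures share no library. Subtracting them gives the difference of the changes upon mixing with its sign turned, so the following counts are no separate result. The sign of the difference was the same in 19 of the 46 genes (41.3%), as against 63.6% of all tested genes. In another 19 genes it was below 0 between pure and above 0 between mixed cells, which held for 21.8% of all tested genes. Without A04, the median of these genes between the mixed groups was −0.021.

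Promoters were searched for what these genes share. RefSeq promoters were found for 53 of the 60 genes, 70 promoters in all (GRCm38.p6), each with 300 bases. They had a median of 60.3% G and C and 25 CpG sites, beside 61.0% and 21 CpG in promoters of the tested genes and 52.7% and 7 CpG in all 32851 promoters. On both strands, the ETS motif CCGGAAGT was in 18.6% of the promoters of these genes, 9.10% of those of tested genes and 3.89% of all promoters. The E-box CACGTG was in 15.7%, 10.8% and 7.15%, the CCAAT box in 50.0%, 38.4% and 37.4%, the YY1 motif AAGATGGC in 4.29%, 5.04% and 2.75%, and the TATA box (TATAAA) in 8.57%, 6.99% and 13.6%. ETS motifs were in promoters of 11 genes, among them Hnrnpd, Hnrnpf, Sf3a1, Sf3a3, Sf3b2, Snrpe, Srsf5 and Srsf11. A match describes the letters of a window and not a bound site.

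The rest of the splicing machinery was followed with 6 lists of other genes. In mixed against pure WT cells, 81 of 102 tested genes (79.4%) were lower, beside 54.9% of all tested genes. At an unadjusted p under 0.05, 17 (16.7%) were lower, beside 4.67% of all tested genes. DESeq2 gave 12 lower at that p, beside 3.06% of all tested genes. After adjustment 0 passed with either tool, beside 0.741% of all tested genes with edgeR. Their median was −0.67, against −0.10 over all genes. The median was −0.48 for 22 genes of Sm-like, U1, U5 and minor snRNP proteins, −0.88 for 11 genes of the 3' splice site and U2, −0.68 for 18 genes of the catalytic spliceosome and the Prp19 complex, −1.14 for 8 genes of snRNP assembly, −0.58 for 17 SR-related factors and SR kinases and genes of the exon junction complex, and −0.45 for 26 other RNA-binding regulators of splicing. All 8 snRNP assembly genes were lower, 3 (37.5%) at an unadjusted p under 0.05, beside 54.9% and 4.67% of all tested genes. In mixed against pure cancer cells, 46 of the 102 genes (45.1%) were lower, near the 47.2% of all tested genes. At an unadjusted p under 0.05, 0 passed, beside 1.31% of all tested genes in either direction. The median of the 102 was 0.10, against 0.03 over all genes. Between pure cancer and pure WT cells, 65 of the 102 (63.7%) were lower, beside 52.1% of all tested genes. While 9.95% of all tested genes passed the adjusted threshold, only 1 of the 102 did. This was Wdr77, a subunit of the methylosome that methylates Sm proteins, which fell by 2.85 in pure cancer cells (standard error 0.88, adjusted p = 0.0385), from 112 and 130 to 31.5 and 5.99 CPM. Wdr77 was at 0 and 38.5 CPM in mixed WT and at 52.0 and 15.6 in mixed cancer libraries. Its adjusted p was 0.0658 with DESeq2, 0.0632 without A01, 0.193 without A05 and 0.252 without A07.

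**Figure D5:**
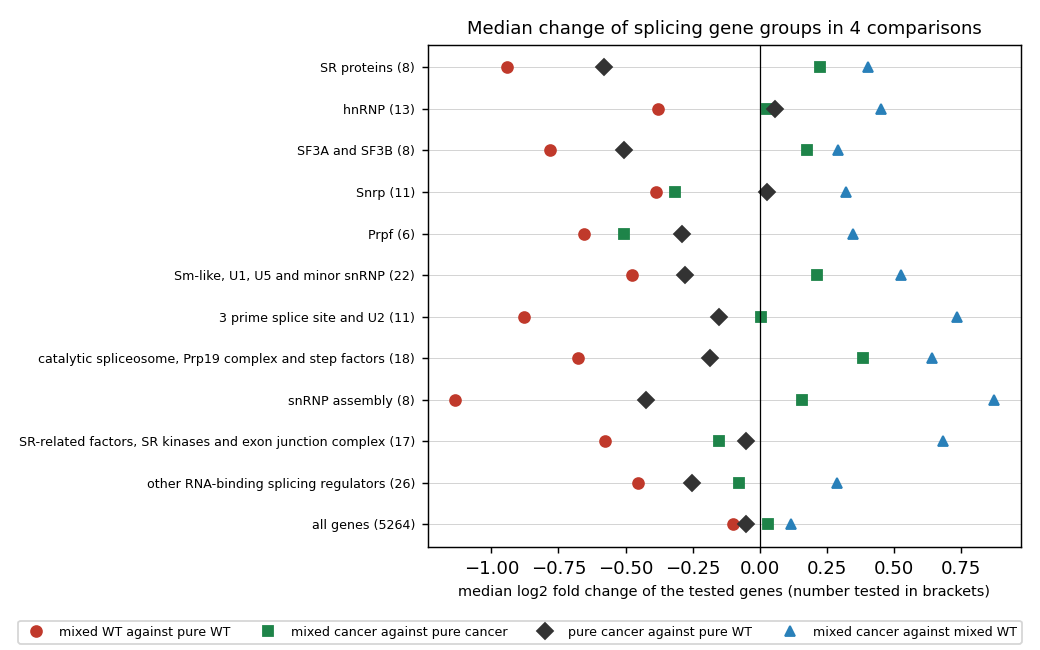
Median log2 fold change (horizontal axis) of the tested genes of the 5 families, of 6 lists of other splicing genes and of all tested genes, with a symbol for each of 4 comparisons. In mixed against pure WT cells all 11 splicing groups lie between −1.14 and −0.38, left of all genes at −0.10, and in mixed cancer against mixed WT cells they lie between 0.29 and 0.87, right of all genes at 0.12.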

How the data were processed

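Bulk CEL-Seq libraries of sorted cells were aligned by the authors with BWA to the mm10 RefSeq transcriptome, reads with several equally good places were dropped, and featureCounts assigned the rest to genes. The authors deposited raw read counts per gene, which include amplification copies and were the main data here, different molecule barcode counts, and estimated counts of transcripts made from the barcodes, which were rounded for use as an alternative. Their DESeq2 table (version 1.22.2) of mixed against pure WT cells was not used. The 2 entries that are no mouse gene held 1 read in all and were left out.

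Depth was 73109 to 4733121 reads, and intervals and limits cover counting error only, with each read taken as a separate count. Some items of the genotype and the gene set are not reported here. Samples were grouped by their labels and no pairs were formed. All 8 libraries entered 1 quasi-likelihood fit in edgeR 4.0.16 (R 4.3.3) with TMM factors and filterByExpr at a minimum count of 10, with 4 residual degrees of freedom. A gene was called at an adjusted p under 0.05 (Benjamini-Hochberg over 5264 tested genes). Standard errors are absolute log2 fold changes divided by the square root of F. The script was checked on simulated data.

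The genes, the 6 further lists, the markers and the naming rule were chosen with earlier results of these data known. Named were called genes, in each comparison the 3 genes per direction with the smallest p and a mean of at least 20 reads, and the 2 genes per family with most reads. Hnrnpl, Srsf1, Srsf5, Srsf9 and Sf3b3 were named after their values were seen. Alternatives were barcode or estimated transcript counts, median-of-ratios factors, a minimum count of 50 or no filter, only the libraries compared, DESeq2 1.42.0, and each library left out in turn. Counts by direction without A01, A02, A05 or A06 were added after seeing the data. Positions and end windows came from GENCODE vM21 (GRCm38) and promoters from RefSeq (GRCm38.p6).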

Additional observations from a re-analysis of the deposited data

Results flagged for a closer look

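The summed level of the SF3A and SF3B genes moved in opposite directions in the 2 cell types. Both mixed WT libraries (459 and 496 CPM) were under both pure WT libraries (783 and 838 CPM), and both mixed cancer libraries (634 and 617 CPM) were above both pure cancer libraries (457 and 545 CPM). The log2 ratio of mixed to pure cells was −0.76 in WT and 0.32 in cancer cells, a difference of −1.09, which was not tested. By gene, 6 of the 8 (75%) were lower and 2 higher in WT cells, beside 54.9% of all tested genes that were lower. In cancer cells 6 were higher and 2 (25%) lower, beside 47.2% of all tested genes that were lower. Of the 8 genes, 0 passed the adjusted threshold in the test of the difference gene by gene, beside 0.076% of all tested genes. At an unadjusted p under 0.05, 3 (Sf3b2, Sf3b3 and Sf3b4, 37.5%) were lower, beside 3.93% of all tested genes.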

How the results depend on the processing

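With 2 libraries in each group, single libraries set many of these values, and a library left alone in its group was assumed to vary like the others. Of the values of named genes under 15 alternatives, 404 kept their direction and side of the threshold, 10 reversed, 7 passed only under the alternative and 5 no longer passed. Of the family ratios, 38 moved by less than the spread between libraries and 10 by more. Where values moved, the cause was not tested unless fewer genes or libraries entered.

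With barcode counts, 1 of the tested genes was called between mixed and pure WT cells, 1 in the difference of the changes and 2 between pure cancer and pure WT cells, beside 2.18%, 0.539% and 14.5% of all tested genes. With estimated transcript counts these numbers were 1, 0 and 2, beside 1.94%, 0.236% and 15.2%. Between pure cancer and pure WT cells, 2 (4.17%) were called in a fit of only the libraries compared, beside 11.3% of all tested genes. At a minimum count of 50, 0 were called, beside 15%, and with DESeq2 0, beside 8.47%. With a library left out, 1 library stands alone in its group, and counts of called genes are not given for those fits. At a minimum count of 50, the 20 genes left had medians of −0.29 in mixed against pure WT cells, −0.21 in the difference, −0.22 between the pure groups and 0.26 between the mixed groups. Without a filter the first 2 were −0.61 and −0.93, beside −0.35 and −1.06 over all genes, and between the pure groups the median was −0.28 with barcode counts and −0.26 with estimated transcript counts.

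Leaving out each library in turn, the median was −1.01 (without A06) to −0.40 in mixed against pure WT cells, −0.34 (without A04) to 0.40 in mixed against pure cancer cells, −1.30 (without A06) to −0.17 (without A04) in the difference, −0.51 (without A03) to 0.12 (without A07) between the pure groups, and −0.021 (without A04) to 0.78 (without A06) between the mixed groups. Sf3a1 in WT cells was −0.40 with barcode and −0.28 with estimated transcript counts, and −0.17 to 1.40 with libraries left out. In the difference of the changes, Hnrnpa3 was −0.60 with barcode and −0.39 with estimated transcript counts and −0.20 to 1.87 with libraries left out, Hnrnpd −10.52 to 0.067 and Snrpe −0.034 to 1.09. Hnrnpd in cancer cells was −4.23 to 2.52, and Snrpd3 between the pure groups −0.094 to 1.47. Over all genes the median without A06 was −0.74 in WT cells, −0.90 in the difference and 0.69 between the mixed groups. No paired analysis was run, since no label ties a well of one group to a well of another.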
